A study of Mus musculus with 2 samples.

Results

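Matrix proteolysis genes are described here in PDGFRα+ cells, a fibroblast-like population that includes adipocyte precursors, sorted from the stromal vascular fraction of mouse inguinal white fat. The genes were taken by symbol alone as all those named Mmp, Adamts, Adamtsl or Timp plus a number, which gave 49 of the 19938 genes measured. They comprise 22 matrix metalloproteinase (MMP) genes, 18 ADAMTS genes, 5 ADAMTS-like (ADAMTSL) genes and 4 TIMP genes. The cells came from females at 6 weeks of age that were either Sox9 floxed or Sox9 PreASKO, and both genotypes had doxycycline at postnatal day 1. The labels name Sox9, a transcription factor gene of cartilage formation, for both genotypes and do not spell out the PreASKO alleles. The promoter that drives the deletion is not given in the sources used here. Each genotype was 1 array of RNA from a pool of 3 mice, so no value below has an error or a test, and the question the design poses is how the genotypes differed past the 1.5-fold limit that the series names.

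MMPs and ADAMTS enzymes are zinc-dependent proteases that cut collagens, proteoglycans and other matrix proteins outside or at the surface of the cell. They are made as inactive precursors, and TIMP proteins inhibit the active enzymes by binding the catalytic zinc. ADAMTS-like proteins share the binding modules of ADAMTS enzymes but have no protease domain, and several bind fibrillin microfibrils. In fat, remodelling of the pericellular collagen network accompanies adipocyte enlargement, and loss of MMP14 in mice impairs white fat development. The arrays measured transcripts and not enzyme activity, and in RNA from a sorted population fewer cells of a type and less RNA per cell cannot be told apart.

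All values are deposited log2 values and all differences are PreASKO minus floxed, where 0.585 corresponds to 1.5-fold. Background was set at 4.64, below which 95% of 1027 olfactory receptor genes lay in the brighter of the arrays, since these genes should be silent outside sensory neurons. The same percentile was 4.47 in PreASKO, and of these genes 595 were lower in PreASKO and 346 higher, with 60 at least 1.5-fold lower and 12 at least 1.5-fold higher. Sox9 itself was at 5.25 in floxed and 4.97 in PreASKO, a difference of -0.27 that does not reach 1.5-fold, so that it gives little check of the labels. Pdgfra, whose product was sorted on, was at 9.86 and 9.55. All 6 fibroblast markers were above background, and so were all 8 macrophage markers, each of which was higher in PreASKO. The macrophage markers ran from Adgre1, at 7.85 in floxed and 8.11 in PreASKO, to Lyz2, at 11.04 and 11.46. Lyz2 and Mrc1 were above Pdgfra in both arrays, Cd68 and Tyrobp in PreASKO alone, and the other macrophage markers in neither. The fibroblast markers ran from Pdgfra to Dcn, at 12.21 in both arrays.

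Promoter sequence was examined for a run of 10 neighbouring Mmp genes on chromosome 9, because members of this run stood on both sides of the background. The run holds no other protein-coding gene in the RefSeq table. The letters TGAGTCA, the consensus of the AP-1 factors formed by FOS and JUN proteins, were searched on both strands in windows from 250 bases before to 50 bases after the annotated start. Of 34 members with such a window 7 held them, all in this run, a gene with several windows being counted once, whereas 5.2% of all 32851 windows did. The TATA letters TATAAA, searched in the same way, were present in 9 of the 10 genes of the run, in 3 of the 24 other members and in 13.6% of all windows. The 4 windows below show 3 genes of the run that hold both motifs and 1 that holds neither, with TGAGTCA or its complement TGACTCA and TATAAA in capitals. They are RefSeq promoter windows of GRCm38.p6, all on the plus strand, at chr9:7445572-7445871 for Mmp3, chr9:7272264-7272563 for Mmp13, chr9:7502092-7502391 for Mmp10 and chr9:7571146-7571445 for Mmp27.
Mmp3: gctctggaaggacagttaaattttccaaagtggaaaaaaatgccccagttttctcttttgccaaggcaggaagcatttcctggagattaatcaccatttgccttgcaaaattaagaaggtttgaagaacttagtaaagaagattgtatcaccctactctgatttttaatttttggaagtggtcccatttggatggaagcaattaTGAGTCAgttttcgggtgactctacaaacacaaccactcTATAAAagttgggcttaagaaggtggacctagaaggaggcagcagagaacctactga
Mmp13: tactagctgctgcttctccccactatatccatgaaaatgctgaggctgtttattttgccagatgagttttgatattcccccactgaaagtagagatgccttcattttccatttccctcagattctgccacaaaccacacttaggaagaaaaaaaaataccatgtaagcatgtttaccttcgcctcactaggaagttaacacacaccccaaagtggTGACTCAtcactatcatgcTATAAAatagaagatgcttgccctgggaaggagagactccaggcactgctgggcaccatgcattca
Mmp10: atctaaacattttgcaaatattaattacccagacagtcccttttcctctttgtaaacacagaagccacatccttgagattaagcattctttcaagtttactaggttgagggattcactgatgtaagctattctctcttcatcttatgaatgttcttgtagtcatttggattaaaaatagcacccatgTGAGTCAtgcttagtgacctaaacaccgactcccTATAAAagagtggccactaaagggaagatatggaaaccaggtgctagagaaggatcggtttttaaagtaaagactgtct
Mmp27: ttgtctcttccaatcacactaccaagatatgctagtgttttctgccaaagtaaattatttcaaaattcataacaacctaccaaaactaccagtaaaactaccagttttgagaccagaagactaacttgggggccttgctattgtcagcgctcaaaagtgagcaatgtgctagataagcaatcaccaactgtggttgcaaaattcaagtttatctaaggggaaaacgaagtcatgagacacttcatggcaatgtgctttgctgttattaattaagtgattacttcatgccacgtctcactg
The AP-1 letters begin 46 bases before the start in Mmp3, 35 in Mmp13 and 63 in Mmp10, and in none of these windows do they overlap the TATA letters.

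These neighbours stood differently against background. Mmp3, stromelysin-1, was at 9.88 in floxed and 9.78 in PreASKO, and Mmp27 was at 6.91 and 6.71, so both genes were above background in both arrays. Mmp10, stromelysin-2, was at 3.93 in both arrays, and Mmp13, collagenase-3, was at 4.49 and 4.72, on either side of the background. Mmp12, the macrophage elastase gene, was at 4.67 and 4.45, and Mmp7, matrilysin, at 4.68 and 4.40, so both crossed the background in the other direction. The remaining genes of the run, Mmp1a, Mmp1b, Mmp8 and Mmp20, were below background in both arrays. Of the 7 genes with the AP-1 letters in the window, Mmp3 was above background in both arrays, Mmp7, Mmp12 and Mmp13 in 1, and Mmp1a, Mmp1b and Mmp10 in neither. Of the 3 without them, Mmp27 was above and Mmp8 and Mmp20 were below. Fos and Jun, which encode AP-1 subunits, were at 11.11 and 11.07 in floxed and at 11.13 and 11.15 in PreASKO.

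**Figure D1:**
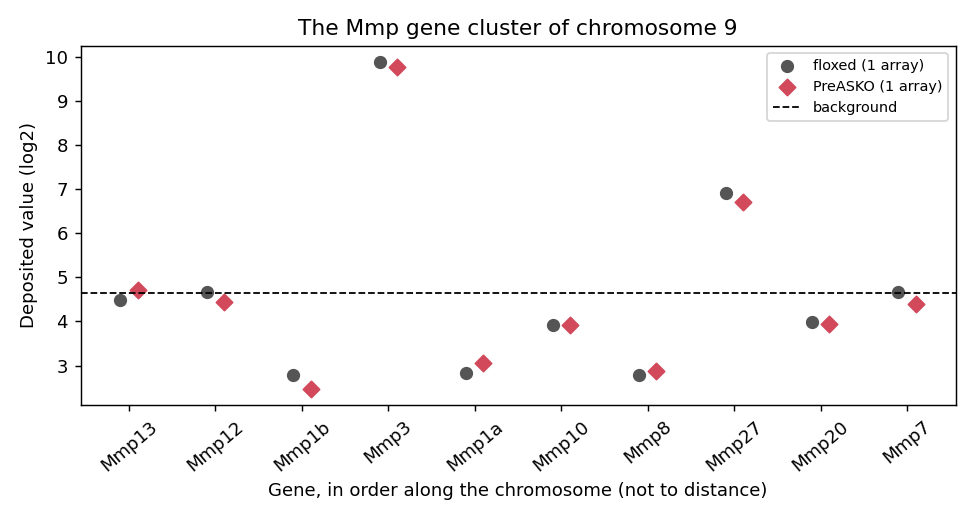
Deposited log2 values (vertical axis) of the 10 Mmp genes of the chromosome 9 run in their order along the chromosome (horizontal axis, not to distance), with a circle for the floxed array, a diamond for the PreASKO array and the background of 4.64 as a dashed line. Mmp3 and Mmp27 lie above the line in both arrays, Mmp13, Mmp12 and Mmp7 straddle it, and the other 5 genes lie below it.

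Across all 49 members, 32 were above background in both arrays, 3 in 1 array and 14 in neither. No MMP, ADAMTSL or TIMP gene differed by 1.5-fold. The member that did was Adamts6, at 3.44 and 2.85, which is below background in both arrays, so that its difference of -0.59 is not a measured change. This 1 of 49 (2.04%) compares with 3.64% of all genes past 1.5-fold in either direction. Among the 35 members above background in at least 1 array 0 passed, against 3.23% of the 11800 genes above background. The differences of these 35 members ran from -0.50 to 0.47, with a median size of 0.23 in either direction, while the median size over all genes above background was 0.15.

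**Figure D2:**
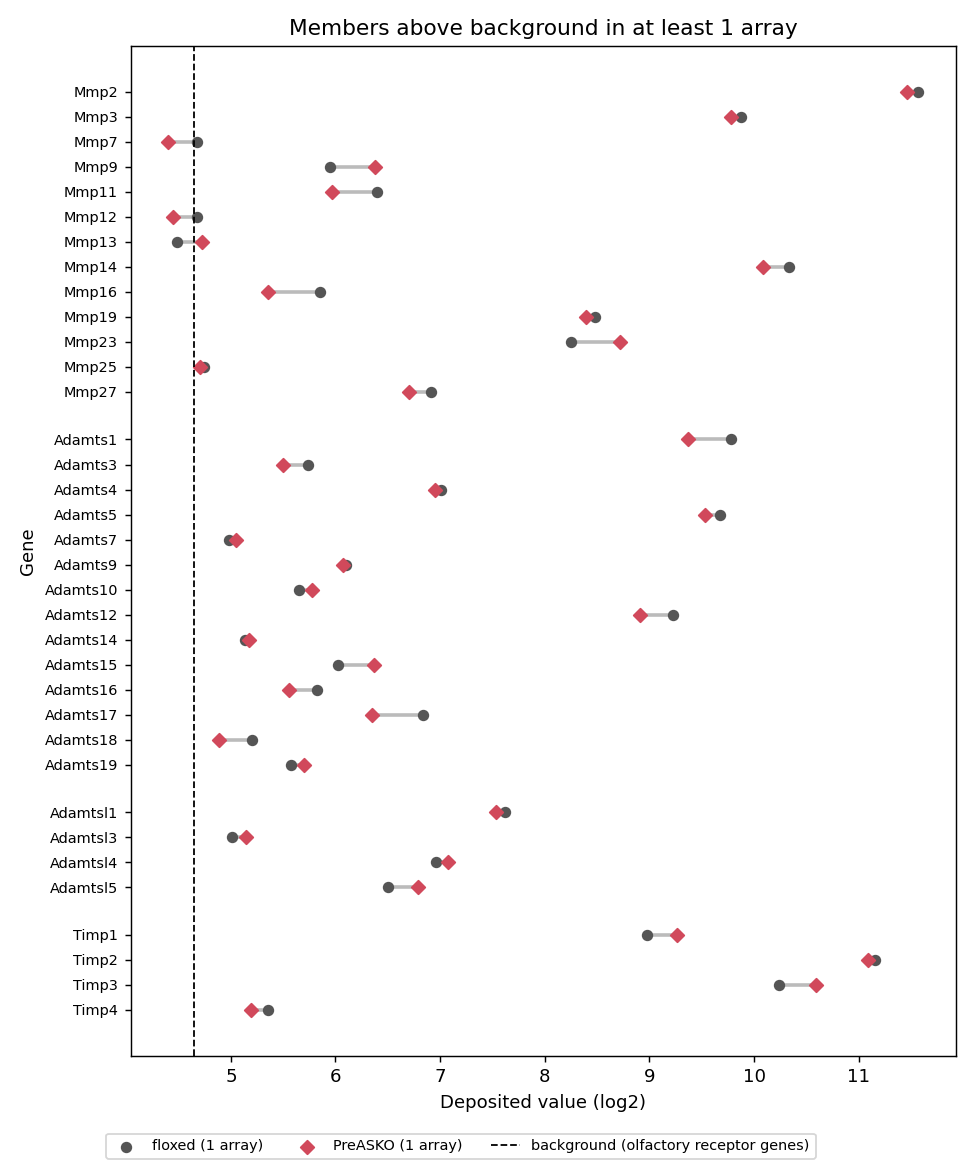
Deposited log2 values (horizontal axis) of the 35 members above background in at least 1 array, by gene (vertical axis), with a circle for the floxed array, a diamond for the PreASKO array and the background of 4.64 as a dashed line. The widest gaps are those of Mmp16, Adamts17 and Mmp23, at -0.50, -0.49 and 0.47, and none spans 0.585.

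Proteases leaned lower in PreASKO and inhibitors were divided. Of the 27 protease genes above background 19 were lower (70.4%), where 45.4% of all genes above background were lower. Their median difference was -0.11, against 0.02 over all genes above background. Mmp12 and Mmp7 reached background in floxed alone and Mmp13 in PreASKO alone, which sets their direction. Without these 3, over the 24 proteases whose mean of both arrays reached background, 17 were lower (70.8%) with a median of -0.10, where 45.0% of all genes held to the same floor were lower. The 4 TIMP genes, all above background in both arrays, had a median of 0.11, with 2 higher and 2 lower. The protease median lay 0.22 below the TIMP median. The families overlapped: 13 of the 27 proteases lay inside the range of the 4 TIMP differences, 12 were below it and 2 above it. With 4 inhibitors on 1 array per genotype this contrast is a description of these arrays. Over all 40 protease genes, background members included, the median was -0.09 and 26 were lower, with 48.0% of all genes lower. With values below background raised to it the protease median was 0, because 13 of the 40 then have no difference.

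**Figure D3:**
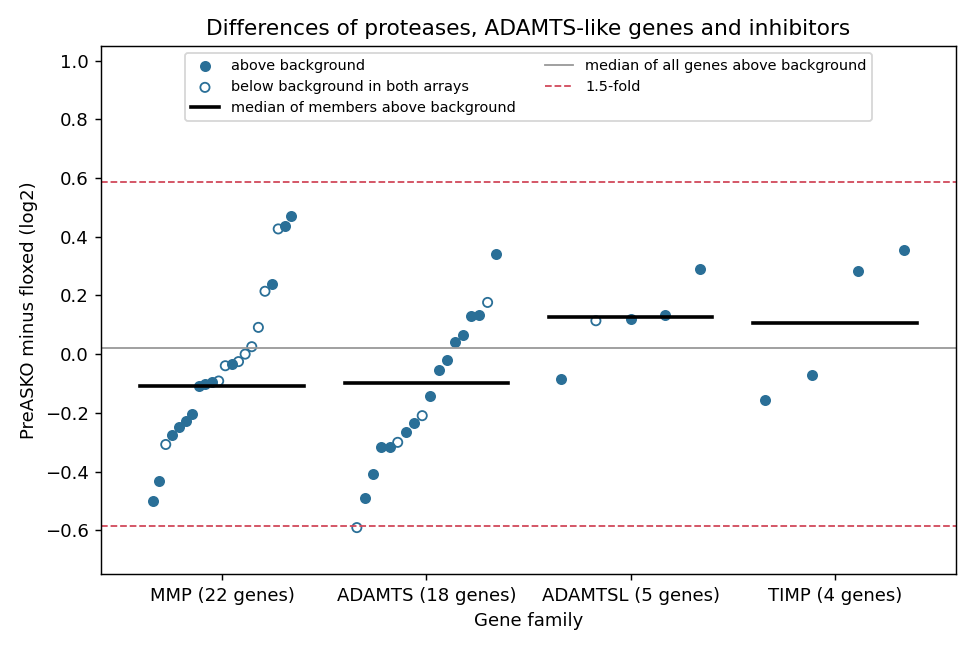
Differences PreASKO minus floxed (vertical axis, log2) of the 49 members by family (horizontal axis), ordered by value within a family, with filled points above background, open points below it in both arrays, black bars at the family medians above background, a grey line at the median of all genes above background and dashed lines at 1.5-fold. The MMP and ADAMTS bars lie at -0.11 and -0.10, the ADAMTSL and TIMP bars at 0.13 and 0.11, and the families' points overlap.

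Among the inhibitors, Timp3 was higher in PreASKO. This TIMP binds the extracellular matrix and inhibits ADAMTS4, ADAMTS5 and the shedding enzyme ADAM17 as well as MMPs. It was at 10.24 in floxed and 10.59 in PreASKO, a difference of 0.35 or 1.28-fold, and 14.3% of all genes above background differed by at least as much in either direction. Timp1, a broad inhibitor of secreted MMPs, was at 8.98 and 9.26, a difference of 0.28. Timp2, which inhibits MMP14 and with it forms the complex that activates the MMP2 precursor, was at 11.16 and 11.09, a difference of -0.07. Timp4 was at 5.35 and 5.19, a difference of -0.16. Timp1, Timp3 and Timp4 each lie within a synapsin gene in the RefSeq table. Those host genes, Syn1, Syn3 and Syn2, were below background in both arrays.

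Of the windows searched for AACAAT, core letters bound by SOX factors, Timp1 is the only TIMP window with a match. Only 34 of the 49 members have a window. The letters were searched on both strands and were found in 3 of these 34 members (Timp1, Mmp7 and Mmp25), against 10.7% of all windows. Members thus did not hold the letters more often than windows in general. Unlike Timp1, Mmp7 and Mmp25 were lower in PreASKO, with differences of -0.27 and -0.03, and Mmp7 reached background in floxed alone. The Timp1 window of GRCm38.p6 on the plus strand, chrX:20869916-20870215, is shown because Timp1 was among the higher inhibitors, with the match, here as its complement ATTGTT, in capitals 228 bases before the start.
Timp1: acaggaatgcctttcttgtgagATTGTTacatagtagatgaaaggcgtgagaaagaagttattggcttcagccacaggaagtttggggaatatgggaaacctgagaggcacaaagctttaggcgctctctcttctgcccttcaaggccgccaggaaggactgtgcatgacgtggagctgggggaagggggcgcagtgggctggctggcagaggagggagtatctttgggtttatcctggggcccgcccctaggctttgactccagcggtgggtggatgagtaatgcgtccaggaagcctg
A match of 6 letters is a description of the sequence and not a binding site, and a link between Sox9 and Timp1 was not tested.

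The gelatinases, which cut denatured collagen and basement membrane collagen, differed from each other in direction. Mmp2, gelatinase A, was at 11.57 in floxed and 11.46 in PreASKO, a difference of -0.11. Mmp9, gelatinase B, a product of myeloid cells among others, was at 5.94 and 6.38, a difference of 0.44 or 1.35-fold. In all genes above background 8.41% differed by at least as much as Mmp9. The 8 macrophage markers had a median difference of 0.44, with their summed linear signal at 5626 in floxed and 7648 in PreASKO. Of 7 neutrophil markers, 5 (S100a8, S100a9, Ly6g, Elane and Retnlg) did not reach background in either array. Csf3r was above background in both arrays and higher in PreASKO, at 4.68 and 5.12. Mpo, at 4.19 and 4.67, reached background in PreASKO alone, which sets its direction. The summed linear signal of the list, 120.6 and 145.2, includes the 5 markers below background. The part of these cells in the Mmp9 difference was not tested. Mmp12, expressed by macrophages, was at 4.67 in floxed and 4.45 in PreASKO. It reached background in floxed alone, which sets its direction. With values raised to background its difference was -0.03. The part of macrophages in the Mmp12 values was not tested.

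The stromelysin genes were not higher. Stromelysin-1 and stromelysin-2, the products of Mmp3 and Mmp10, cut proteoglycans and glycoproteins and activate other MMPs. Mmp11, stromelysin-3, a fibroblast product that is activated inside the cell by furin, was at 6.40 and 5.96, a difference of -0.43 or 1.35-fold lower. Mmp3 differed by -0.10 and Mmp10 was below background. Of the collagenases, Mmp1a, Mmp1b and Mmp8 did not reach background in either array, and the value of Mmp13 in PreASKO was at least 1.06-fold above the background that bounds its floxed value.

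The 3 membrane-type MMP genes above background had lower values in PreASKO, as did 45.4% of all genes above background. Mmp14, the membrane-type enzyme that cuts fibrillar collagen and activates MMP2, was at 10.33 in floxed and 10.09 in PreASKO, a difference of -0.25. Mmp16, its relative with a similar membrane anchor, was at 5.86 and 5.35. That difference of -0.50, 1.42-fold, was the largest among members above background in either direction, and 5.46% of genes above background differed by at least as much. Mmp25, a leukocyte enzyme with a lipid anchor, was at 4.74 and 4.70, barely above background. Mmp17 and Mmp24 were below background in both arrays.

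Of the other MMPs, Mmp23 had the most positive difference among members above background in the deposited values. It encodes a membrane-tethered enzyme that lacks the cysteine switch and the hemopexin domain of its relatives. Its values were 8.25 in floxed and 8.72 in PreASKO, a difference of 0.47 or 1.38-fold, a size that 6.74% of genes above background reached. The neighbouring gene Mib2, which overlaps Mmp23 in the RefSeq table, was at 5.44 and 5.51, a difference of 0.07. Mmp19 was at 8.48 and 8.39, a difference of -0.09, and Mmp27 differed by -0.21. Mmp20, the enamel protease, Mmp21 and Mmp28 were below background in both arrays.

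The proteoglycan-cleaving ADAMTS genes were lower in 4 of 5 members above background, where 45.4% of all genes above background were lower. Among the 4, Adamts9 was lower by a difference of -0.02 alone. Adamts1, an enzyme that cuts versican and aggrecan, was at 9.78 in floxed and 9.37 in PreASKO, a difference of -0.41 or 1.33-fold lower, with 10.1% of genes above background at least as far from 0. Adamts4 and Adamts5 encode the major aggrecanases. The first was at 7.005 and 6.952 and the second at 9.67 and 9.53, differences of -0.05 and -0.14. Adamts9 was at 6.10 and 6.08 on its brightest probe set, and its difference turned to 0.0034 with the mean over its probe sets. Adamts15 went the other way, at 6.03 and 6.37, a difference of 0.34. Adamts8 and Adamts20 were below background in both arrays.

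Procollagen-processing and COMP-cleaving members each split in direction. Adamts3, which removes the amino propeptide of procollagen and activates the lymphatic growth factor VEGF-C, was at 5.74 and 5.50 on its brightest probe set, a difference of -0.23. Adamts14, another procollagen N-proteinase, was at 5.13 and 5.17. Adamts12, an enzyme that cuts cartilage oligomeric matrix protein (COMP), was at 9.23 in floxed and 8.91 in PreASKO, a difference of -0.32. Adamts7, the related enzyme, was at 4.98 and 5.05. The substrate gene Comp was below background in both arrays.

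Adamts17 stood out among the remaining ADAMTS genes. ADAMTS17 and ADAMTS10 are linked to fibrillin microfibrils, and mutations of either cause Weill-Marchesani syndromes in humans. Adamts17 was at 6.84 in floxed and 6.35 in PreASKO, a difference of -0.49 or 1.40-fold lower, and 5.80% of genes above background differed by at least as much. Adamts10 was at 5.65 and 5.78, a difference of 0.13. Adamts18 was at 5.21 and 4.89, a difference of -0.32, and Adamts16 at 5.82 and 5.56, a difference of -0.27. Adamts19 was at 5.57 and 5.70. Adamts13, the protease of von Willebrand factor, was below background in both arrays, as was Adamts6.

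Adamts3, Adamts9 and Adamts17 have several probe sets, which read different stretches of 1 gene in the same RNA and are not replicates. For Adamts17 all 5 probe sets were lower in PreASKO, from -0.63 to -0.09, with a median of -0.44, and 1 passed 1.5-fold. For Adamts3 12 of 16 were lower, 3 higher and 1 the same, with a median of -0.30, against -0.23 on the probe set chosen for its level. Of these 16 probe sets 5 were at least 1.5-fold lower, 3 of them above background, and none was 1.5-fold higher. Over every probe set that names 1 gene 2.03% were at least 1.5-fold lower, as were 60 of the 1027 olfactory receptor genes. The 3 of Adamts3 above background were at 5.58 and 4.96, at 5.53 and 4.92, and at 5.41 and 4.73. For Adamts9 4 of 6 were lower and 2 higher, from -0.41 to 0.55, so that its probe sets gave no common direction. The 2 probe sets of Adamtsl1 differed by -0.08 and 0.09.

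**Figure D4:**
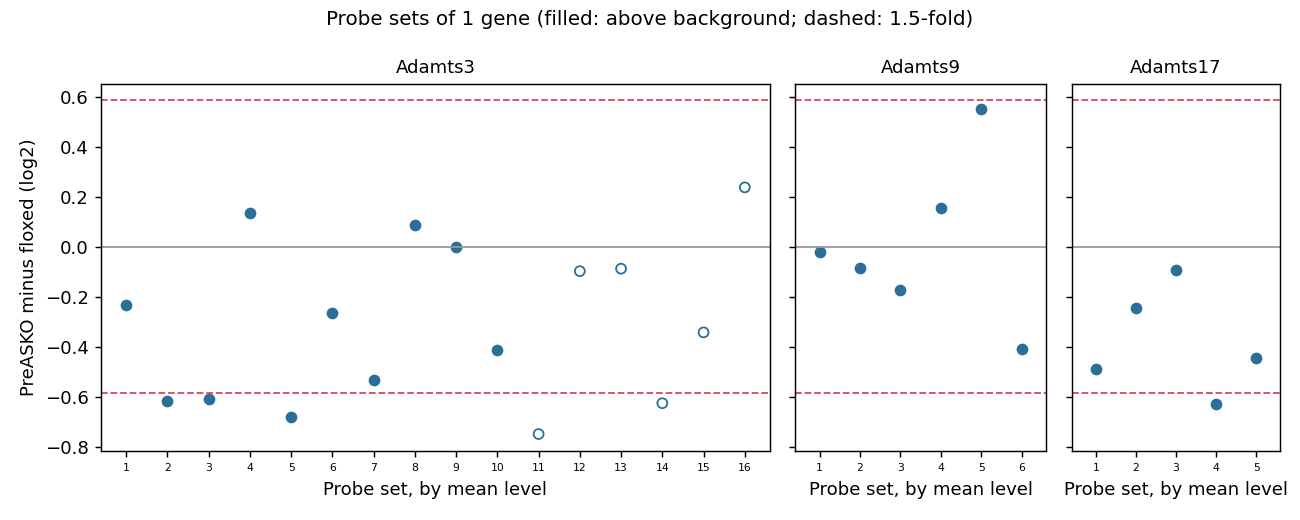
Differences PreASKO minus floxed (vertical axis, log2) of every probe set of Adamts3, Adamts9 and Adamts17, numbered by falling mean level (horizontal axis), with filled points above background and dashed lines at 1.5-fold. All 5 points of Adamts17 and 12 of 16 of Adamts3 are below 0, while those of Adamts9 spread from -0.41 to 0.55.

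The ADAMTS-like genes, which code for matrix proteins with no protease domain, were described apart from both proteases and inhibitors. Of 4 above background 3 were higher, with a median of 0.13, where 6253 of all 11800 genes above background were higher. Adamtsl5 was at 6.50 in floxed and 6.79 in PreASKO, a difference of 0.29 or 1.22-fold. Adamtsl4, which binds fibrillin-1 and whose human gene is mutated in dislocated lenses, was at 6.96 and 7.08. Adamtsl3 was at 5.01 and 5.14, and Adamtsl1 at 7.62 and 7.53. Adamtsl2, mutated in human geleophysic dysplasia, was below background in both arrays.

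Enzymes and inhibitors known to act on each other were set side by side as differences. Mmp14, Mmp2 and Timp2, which form the activation complex of the MMP2 precursor, differed by -0.25, -0.11 and -0.07, all in 1 direction. Mmp9 and Timp1, which bind each other already as precursor and inhibitor, were both higher, by 0.44 and 0.28. Mmp3, another target of Timp1, went the other way from it, at -0.10, a gap of -0.38. A difference at least as large as that of Mmp3 was seen in 64.2% of genes above background. Timp3 differed by 0.35, while Adamts1, Adamts4 and Adamts5, paired with it, differed by -0.41, -0.05 and -0.14. Most genes above background differed at least as much as Adamts4 (81.0%) and Adamts5 (51.8%). Adamts15, a proteoglycan-cleaving member not among the pairs, differed by 0.34, in the direction of Timp3. The gap between inhibitor and enzyme was widest for Adamts1, at -0.76, followed by Adamts5 at -0.50 and Adamts4 at -0.41. Each gap joins 2 differences that are below 1.5-fold on their own.

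The other genes of matrix proteolysis were taken from 11 lists with 128 genes, of which 121 were measured. Cathepsins, mostly lysosomal proteases, were higher in 11 of 13 members above background, where 6253 of all 11800 genes above background were higher. Their median was 0.22 and none passed 1.5-fold. Ctss, an elastin-cutting cathepsin of antigen-presenting cells, was at 8.08 and 8.59, and Ctsc at 8.93 and 9.41. At the other end Lgmn differed by -0.08, and Ctse, at 4.67 in floxed, was below background in PreASKO. The macrophage markers, higher by a median of 0.44, moved with this list, and their part in it was not tested. Cst3, cystatin C, the secreted inhibitor of cathepsins, was at 10.91 and 11.14.

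In the list of inhibitors and related family members outside the TIMP family, 5 of 6 members above background were lower, with a median of -0.15. The share of all genes above background that were lower was 45.4%. Tfpi2, a matrix-bound inhibitor of serine proteases, was at 8.02 and 7.64, a difference of -0.38. Spock2 and Serpinh1, which were listed by family and not as inhibitors of a given protease, differed by -0.24 and -0.19. Reck, a membrane-anchored inhibitor of several MMPs, was at 8.84 and 8.72, a difference of -0.12. Serping1, the inhibitor of complement C1, differed by -0.04. None of these members passed 1.5-fold.

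Genes of the plasminogen system, whose product plasmin cuts fibrin and activates MMPs, had a median of -0.03 over 5 members above background. Plat and Plau, the tissue and urokinase plasminogen activators, differed by -0.25 and -0.16, whereas the plasminogen receptor gene Plgrkt differed by 0.25 and Hgf, a plasminogen-related growth factor, by 0.10. The ADAM family genes, only some of which encode enzymes that shed cell surface proteins, had a median of -0.05 over 10. Adam17, a TIMP3 target, was at 8.47 and 8.21, a difference of -0.26, Adam22 differed by -0.24 and Adam15 by 0.24. Adam11 lay at the background. In both lists 0 members passed 1.5-fold.

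Among procollagen proteinases and their enhancers 1 of 4 members above background passed the limit as deposited, a limit that 3.23% of all genes above background passed. Tll1, a tolloid-like relative of BMP1, was at 5.03 in floxed and below background in PreASKO (4.43), at least 1.31-fold lower when bounded by the background, a bound short of 1.5-fold. Bmp1 differed by -0.03, and the enhancer genes Pcolce and Pcolce2 by -0.11 and 0.03. Of the proteoglycan substrates Fmod, fibromodulin, was 1.75-fold lower, while Vcan, the versican that ADAMTS enzymes cut, was at 9.68 and 9.71 and Bgn, biglycan, at 10.81 and 10.82. Acan, the aggrecan gene for which aggrecanases are named, was below background in both arrays, and Ncan was barely above it (-0.06).

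The activators and clearance receptors were nearly level, with a median of -0.03 over 12 members above background. The proprotein convertase genes Pcsk6 and Pcsk7 differed by -0.26 and -0.24, the hyaluronan receptor gene Cd44 by 0.19 and Lrp1, an endocytic receptor that clears TIMP3 and several proteases, by 0.07. Microfibril partners of ADAMTS and ADAMTSL proteins had a median of -0.11, with 9 of 13 lower, where 45.4% of all genes above background were lower. Papln, papilin, a matrix protein related to ADAMTS enzymes, was at 5.81 and 5.33, a difference of -0.48, and Lox, the collagen crosslinking enzyme, differed by -0.29. Loxl1 differed by 0.08 and Pofut2, which fucosylates the thrombospondin repeats of ADAMTS proteins, by 0.18. Neither list had a member past 1.5-fold.

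Inducers of MMP genes, a list of cytokines and transcription factors, had a median of 0.04 over 15 members. In this list 10 were higher, where 6253 of all 11800 genes above background were higher. As deposited 2 of the 15 passed 1.5-fold, a limit that 3.23% of genes above background passed. Il1b, an inflammatory cytokine, was at 5.05 and 6.33, and was 2.42-fold higher. Il1a was below background in floxed (4.53) and at 5.13 in PreASKO, at least 1.41-fold higher, so that it passed the limit only as deposited, whereas Il1b was above background in both arrays. The 8 macrophage markers, all higher, moved with Il1b, among them Tyrobp by 1.71-fold and C1qa by 1.69-fold, and their part in it was not tested. The ETS factor genes Etv4 and Ets2 differed by -0.17 and -0.16. Mmp3, which interleukin-1 is known to induce in fibroblasts, differed by -0.10, and 64.2% of genes above background differed at least as much. A link between Il1b and Mmp3 was not tested. Heparan sulfate degrading enzymes had a median of 0.15 over 3, with Hpse, heparanase, at 0.24, and Sulf2 and Sulf1 at 0.15 and -0.10. Hyaluronan genes had a median of 0.11 over 4, with Cemip2 at 0.22, Hyal2 at 0.20 and the synthase genes Has1 and Has2 at 0.03 and -0.09.

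**Figure D5:**
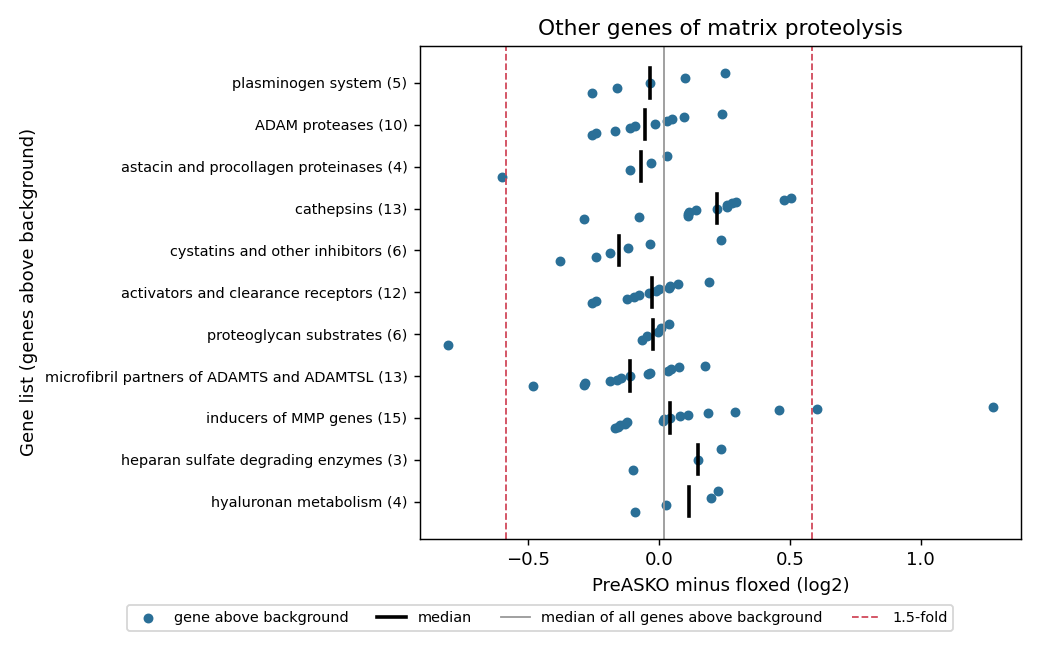
Differences PreASKO minus floxed (horizontal axis, log2) of list genes above background, by list (vertical axis, number of genes in parentheses), with black bars at list medians, a grey line at the median of all genes above background and dashed lines at 1.5-fold. Cathepsins have the most positive median, 0.22, and the points past the limit are Il1b, Il1a, Tll1 and Fmod.

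Members of other cell types' marker lists were read beside these values. Of the 7 mural cell markers 4 were lower and 3 higher, with a median of -0.33 and a summed linear signal of 448.1 in floxed and 375.5 in PreASKO. They ran from Kcnj8, at -0.62, to Notch3, at 0.46. Myh11, at 4.43 and 4.83, reached background in PreASKO alone, which sets its direction. Of 5 endothelial markers 3 were lower and 2 higher, with a median of -0.20, from Kdr at -0.69 to Cldn5 at 0.25. Pecam1, at 4.79 and 4.48, reached background in floxed alone, which sets its direction. The summed linear signal of the endothelial list was 442.7 and 391.2. Neither array had Cd3d or Cd4 at background, while the other 3 of 5 T cell markers were higher in PreASKO, Cd3e at 4.96 and 5.84, 1.84-fold, and Cd8a and Cd3g by 0.13 and 0.12, with a summed linear signal of 123.6 and 147.0 for the list. Epithelial markers were below background in both arrays in 5 of 6, and the other, Krt8, was at 5.93 and 6.31. Adipocyte markers were below background in 3 of 4, Adipoq among them. Fibroblast markers had a median of -0.05, with a summed linear signal of 13808 and 13378. The part of these cells in the protease values was not tested.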

How the data were processed

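RNA of PDGFRα+ cells was read on 1 array per genotype. The authors deposited log2 values made with RMA, per the submitters' processing notes. The version, and any filter, are not given in the sources used here, and the log2 scale was taken from the values. RMA makes the distributions of arrays alike and understates differences of dim genes. Of 35556 probe sets, 21789 named 1 gene in the platform annotation, 1621 named several and 12146 were not listed there. Probe sets with 1 gene were used, and the brightest per gene over both arrays was taken, which gave 19938 genes. Members had 74 probe sets, and all 49 gene IDs were found in RefSeq (GRCm38.p6) with the same symbol. With 1 array per group no test was made, and the number of arrays limits the precision. A member counts as past the limit at 1.5-fold. Sequences are from RefSeq tables.

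Every member above background is named, with members past the limit, and from each list the genes past the limit and the most positive and negative differences above background. Comp, Acan, Reck, Fos, Jun, the cell type markers and the host and overlapping genes were named after their values were seen. The members, lists, enzyme and inhibitor pairs and printed promoters were chosen with earlier results of these data known. Alternatives were a level floor, a background floor, that floor on the mean of both arrays (chosen after seeing the data), values raised to background, a 2-fold limit, other uses of probe sets, centring, loess (span 0.3) and quantile normalization. The counting steps were tested on simulated data. Python 3.11.15, pandas 2.3.3, numpy 2.4.6, statsmodels 0.14.6 and matplotlib 3.10.9 were used.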

Additional observations from a re-analysis of the deposited data

How the results depend on the processing

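The count of members past the limit was 1 and became 0 with the level floor (5.18), the background floor, that floor on the mean of both arrays (chosen after seeing the data), values raised to background, the 2-fold limit, loess and quantile normalization. It became 7, all lower, with every probe set as a feature: 5 of Adamts3, 1 of Adamts17 and that of Adamts6. Over all genes the 725 past the limit (331 higher, 394 lower) became 268 (161 and 107) with the level floor, 381 (209 and 172) with the background floor, 264 (161 and 103) with values raised to background, 299 (171 and 128) with the floor on the mean of both arrays and 51 (22 and 29) at 2-fold. The protease median ran from -0.14 to 0, and stayed below the TIMP median under each alternative in which it was computed, by 0.11 to 0.25. The TIMP median itself moved only with loess (0.08) and quantile normalization (0.06) and was 0.11 elsewhere. The TIMP genes have 1 probe set each and passed every floor, so the floors and probe set choices could not move it. Centring left the member differences and list medians unchanged, because the median difference over all genes was already 0. Differences of members above background kept their sign under loess and quantile normalization. Mmp17, below background, turned from -0.03 to 0.003 with loess. Mmp21, also below background, exceeded Mmp23 with loess (0.46 against 0.44) and quantile normalization (0.46 against 0.44). The medians of the 11 pathway lists above background also kept their sign under loess and quantile normalization. With the mean over probe sets Adamts9 and Adamtsl1 turned and Adamts17 moved to -0.38. No replicate could be left out. No paired analysis was possible because floxed and PreASKO were 1 array each.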
